A study of Mus musculus with 9 samples.

Results

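Chemokines, interleukins and their receptors made up 47 of the 16299 genes in a table of melanocyte transcripts from mouse epidermis. They were chosen by gene symbol: every row named as a CC, CXC or CX3C chemokine, a chemokine receptor (atypical receptors included), an interleukin or an interleukin receptor. The set held 27 ligands, of which 18 were chemokines and 9 interleukins, and 20 receptors, of which 3 bind chemokines and 17 bind interleukins. Il1rn carries the letter r in its symbol but encodes an antagonist that binds the receptor, so it was placed with the ligands.

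The study sorted melanocytes by flow cytometry and sequenced Smart-seq libraries of 3 groups, 3 libraries each. The knockout back group came from back epidermis and the knockout tail group from tail epidermis of Spry1flox/flox mice that carry k14-Cre-ERT2. The control tail group came from tail epidermis of Spry1flox/flox mice without that Cre, so floxed Spry1 was common to all 9 libraries. There was no control from back epidermis, so back against control differs in genotype and in site. The keratin 14 promoter is active in basal keratinocytes, so the Cre is aimed at the neighbours of the sorted cells. ERT2 is a receptor domain that answers to tamoxifen, and the labels used here give no drug, age or sex. They do not say either whether the libraries of a group came from separate animals, and the p-values therefore reflect the spread between libraries, which may be technical.

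Chemokines are small secreted proteins that bind G protein-coupled receptors and guide migrating cells along gradients. Interleukins bind paired receptor chains, most of which signal through JAK kinases and STAT factors or, for the IL-1 and IL-17 families, through adaptors that lead to NF-kB. In skin, keratinocytes, Langerhans cells and T cells make and receive many of these signals, and melanocytes are known to respond to some of them.

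Values are normalised counts, that is, whole read counts recovered from the deposited log2 values and divided by the size factor of each library. Totals of recovered counts, in M (mega counts), ran between 47.7 and 57.1 for knockout back, 45.7 and 65.6 for knockout tail, and 66.3 and 67.9 for control tail. Tests used limma on the deposited log2 values, with a term for 2 sets of libraries between which a shift had been removed before deposit. The smaller set held knockout back library 3 and knockout tail library 3, and the larger set the other 7 libraries. Adjusted p-values are Benjamini-Hochberg over all 16299 genes, with a threshold of 0.05. Differences are on the log2 scale of the deposited curve, which compresses differences at low counts. Melanocyte markers were high in every library, with summed normalised counts of 714881 to 841190 in knockout back, 576027 to 690015 in knockout tail and 517674 to 537754 in control tail over the 5 of 8 markers with recovered counts. The largest part of the back sums was Mlana, and Pmel, Dct and Tyrp1 are not in the sums. On the deposited log2 scale Pmel was at 19.84 to 20.09 in back and 20.91 to 20.95 in knockout tail. Tyrp1 was also lower in back than in knockout tail, and Dct overlapped. The sums therefore do not rank the groups by melanocyte transcripts. Basal keratinocyte markers, 7 of 7 in the table, summed to 119844, 39208 and 190386 in back, 36746, 12718 and 325924 in knockout tail, and 64114, 100246 and 39033 in control tail. Back libraries 1 and 2 were sparse, where 4628 and 6127 genes had no count, while the remaining libraries had 854 to 1739 such genes. Spry1 had 2120, 0 and 761 counts in back, 4446, 2082 and 508 in knockout tail and 1915, 1298 and 1587 in control tail. Eif2s3y, which lies on the Y chromosome, was read 3275, 2543 and 3922 times in back, 4890, 5677 and 0 times in knockout tail and 154, 0 and 9 times in control tail. Xist, the transcript of the inactive X, was read 1313, 1266 and 2699 times in back, 5, 19 and 6364 times in knockout tail and 5354, 1711 and 4908 times in control tail. Sex-linked transcripts thus varied partly with group, and knockout tail library 3 was like the controls in both genes. Every back library held many reads of both.

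The result that passed the test concerned Ccl27b, a copy of the skin chemokine gene Ccl27a, and the sequences before an annotated start of each gene are shown because they are nearly the same. Ccl27a lies at chr4:41769467-41774247 on the minus strand and Ccl27b at chr4:42655251-42656005 on the plus strand, both protein coding (GENCODE vM21, GRCm38). RefSeq on GRCm38.p6 gives several starts, with 3 windows of 250 bases for Ccl27a and 4 for Ccl27b, and the pair that matched best is printed. The windows span chr4:41770213-41770462 and chr4:42655001-42655250. That of Ccl27a precedes an internal start and lies within the annotated gene, and that of Ccl27b ends at the annotated start. Aligned over 238 bases, they had 2 mismatches, which are the bases in capitals.
Ccl27a: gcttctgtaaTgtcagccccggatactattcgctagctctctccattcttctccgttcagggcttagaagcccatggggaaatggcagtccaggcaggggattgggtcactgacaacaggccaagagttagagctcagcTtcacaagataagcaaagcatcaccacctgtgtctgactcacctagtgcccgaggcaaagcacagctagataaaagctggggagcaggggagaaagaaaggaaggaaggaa
Ccl27b: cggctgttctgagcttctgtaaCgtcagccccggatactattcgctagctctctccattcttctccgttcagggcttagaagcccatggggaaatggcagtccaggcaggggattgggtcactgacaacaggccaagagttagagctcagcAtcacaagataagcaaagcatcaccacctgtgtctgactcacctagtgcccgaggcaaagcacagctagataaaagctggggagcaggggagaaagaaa

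Their best matching transcripts differed at 3 of 425 aligned bases, an identity of 99.3%. Gm13306, another gene of the same region at chr4:42153436-42158839 on the plus strand, matched Ccl27b at 418 of 418 aligned bases. It is no member by symbol and was chosen after its values were seen. With transcripts this close, the split of reads among the copies depends on how shared reads were counted, which is not given in the sources used here, and the value of any single copy is uncertain.

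Ccl27b was read in melanocyte libraries from back and hardly at all in those from tail. CCL27 is a chemokine that keratinocytes are known for, and it draws skin-homing T cells through CCR10. Ccl27b had 2644, 1369 and 636.9 normalised counts in knockout back, 0, 0 and 2.31 in knockout tail and 0, 0 and 0 in control tail. All 3 back libraries lay above all 6 tail libraries. Genes in the table had at least 10 counts in at least 3 libraries, and Ccl27b met this through the back libraries alone, so a difference was built into its presence there. The fitted difference was 2.82 ± 0.35 against knockout tail (SE, adjusted p = 0.0293) and 3.04 ± 0.37 against control tail (adjusted p = 0.0138). Pooled over libraries, back had 4276 counts and knockout tail 2. Divided by the summed size factors of each group, this is a ratio of 2507, with an exact 95% interval of 694 to 20699 that covers counting error only. Against control tail, where no count was found, it was at least 1886-fold higher, with the floor set at 3 counts over the group.

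Ccl27a itself was present in every library. It had 1028, 2700 and 1450 normalised counts in knockout back, 290.7, 457.6 and 100.6 in knockout tail and 377.8, 358.3 and 493.8 in control tail. The back libraries again lay above all tail libraries, with no overlap, but the differences of 1.65 ± 0.42 against knockout tail (adjusted p = 0.113) and 1.48 ± 0.44 against control tail (adjusted p = 0.0953) did not pass. Gm13306 had 2462, 1284 and 629.1 in back, 0, 0 and 13.9 in knockout tail and 35.5, 0 and 0 in control tail, and rose against both (differences of 2.70 and 2.76, adjusted p of 0.0435 and 0.0255).

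Summing the 3 copies removes the choice of copy for a shared read, provided each such read was counted once, which is not known. The sum was 6134, 5354 and 2716 normalised counts in knockout back, 291, 458 and 117 in knockout tail and 413, 358 and 494 in control tail. Its mean in back was 16.42 times that in knockout tail and 11.22 times that in control tail. Without Gm13306, whose counts in back were close to those of Ccl27b, these ratios were 11.55 and 7.99. The sum was entered as 1 gene in the same fit, a setting chosen after seeing the data. It rose in back by 2.88 ± 0.35 against knockout tail (adjusted p = 0.0251) and by 2.83 ± 0.37 against control tail (adjusted p = 0.016). Of the copies, Ccl27b and Gm13306 met the count minimum only with the back libraries, so part of this rise is built in too. Knockout tail and control tail differed by -0.05 ± 0.37, which did not pass (adjusted p = 1).

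**Figure D1:**
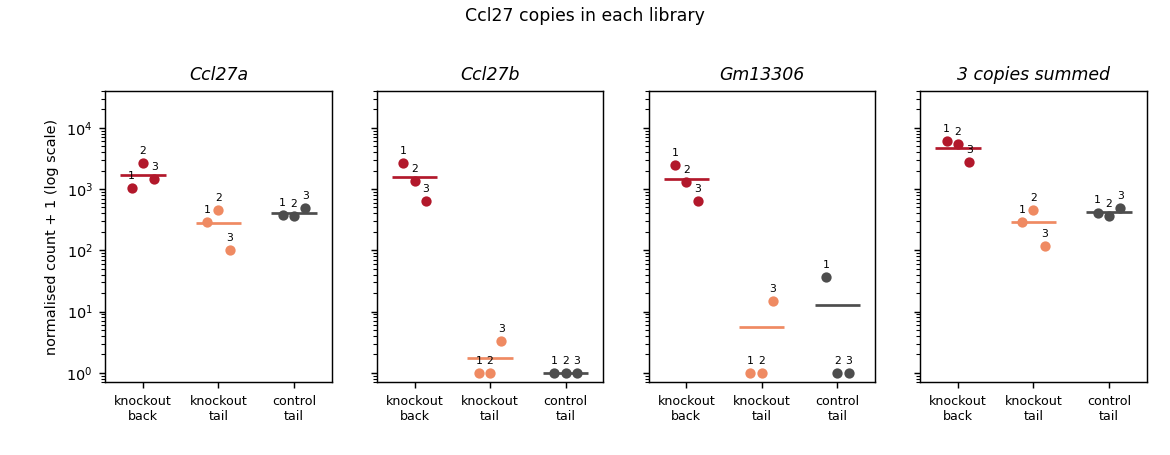
Normalised counts plus 1 on a log axis of Ccl27a, Ccl27b, Gm13306 and their sum, with 1 point per library (numbered 1 to 3) and a bar at the group mean. The 3 back libraries lie at 2716 to 6134 in the sum, above the 6 tail libraries at 117 to 494.

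Both comparisons use the same back libraries, so they do not bear on each other independently. The call for Ccl27b did not hold without some libraries. Leaving out the sparse back libraries 1 and 2, which leaves 1 back library, gave a difference of 1.96 against either tail group (adjusted p of 0.174 against knockout tail and 0.142 against control tail). Leaving out any control library raised the adjusted p to between 0.085 and 0.0975 against knockout tail and to between 0.0698 and 0.0772 against control tail, with the difference kept at 2.82 and 3.04. Without knockout tail library 1 or 2 the difference against knockout tail was 2.70, with adjusted p of 0.173 and 0.167. Differentiated keratinocyte markers, 7 of 7 in the table, summed to 37887, 201873 and 54829 in back, 14030, 17218 and 151880 in knockout tail and 41272, 111235 and 27342 in control tail. These and the basal keratinocyte sums overlapped between groups, and their part in the difference was not tested. In bulk samples like these, fewer cells of a type and less RNA per cell cannot be told apart.

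Across all genes, knockout back against knockout tail gave 71 calls (0.436% of genes), 23 of them higher (0.141%), and 1 of the 47 members, Ccl27b, was among the higher ones. Knockout back against control tail gave 545 calls (3.34%), of which 171 were higher (1.05%), and again 1 member, Ccl27b, was called. Because Ccl27b was in the table through the back libraries alone, both of its calls are partly built in. Knockout tail against control tail gave 10 calls (0.0614%) and 0 members, with 3 members at an unadjusted p under 0.05 against 5.7% of all genes. Without the set term limma called 0 genes there, with 814 genes (4.99%) and 2 members at an unadjusted p under 0.05. Members at an unadjusted p under 0.05 numbered 6 for back against knockout tail, where 18.2% of all genes were below that level, and 10 for back against control tail, where 24.6% were.

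**Figure D2:**
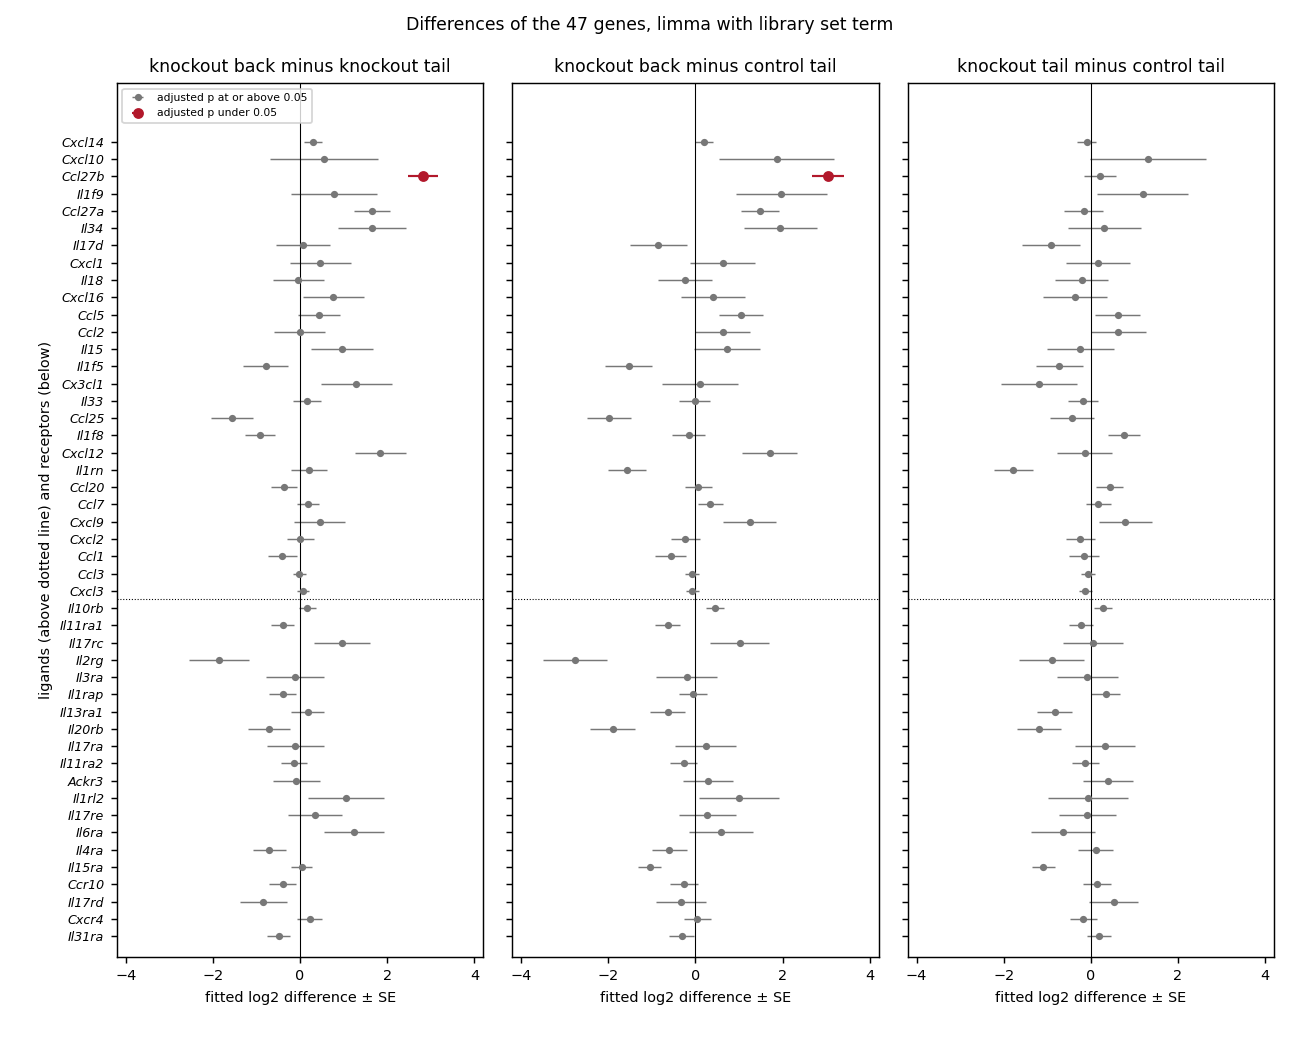
Fitted log2 difference ± SE of each of the 47 genes in the 3 comparisons, from limma with the library set term, ligands above the dotted line and receptors below it, each ordered by level per kilobase. Red points, those of Ccl27b at 2.82 and 3.04, are the members with an adjusted p under 0.05. Ccl27b was in the table through the back libraries alone.

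In the main fit the median ligand difference for back lay slightly above that of all genes, and the median receptor difference lay near it. The median difference of the 27 ligands was 0.21 for back against knockout tail and 0.19 for back against control tail, beside -0.18 and -0.26 over all genes. The 20 receptors had medians of -0.11 and -0.23. For knockout tail against control tail the median was -0.13 for ligands, -0.07 for receptors and -0.07 over all genes. These medians are descriptions with no test, and they moved with scaling: under quantile normalisation the ligand medians for back became 0.77 and 0.92, the receptor medians changed sign, to 0.26 and 0.37, and the median of all genes became 0.03 in both comparisons. Without the sparse back libraries the ligand median for back against control tail was -0.04, beside -0.03 over all genes. Quantile normalisation also moved the calls for back to 46 higher and 46 lower against knockout tail, where the main counts were 23 and 48, and to 218 and 262 against control tail, where they were 171 and 374. Limma-voom without the set term gave 20 higher and 148 lower, and 66 and 251.

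**Figure D3:**
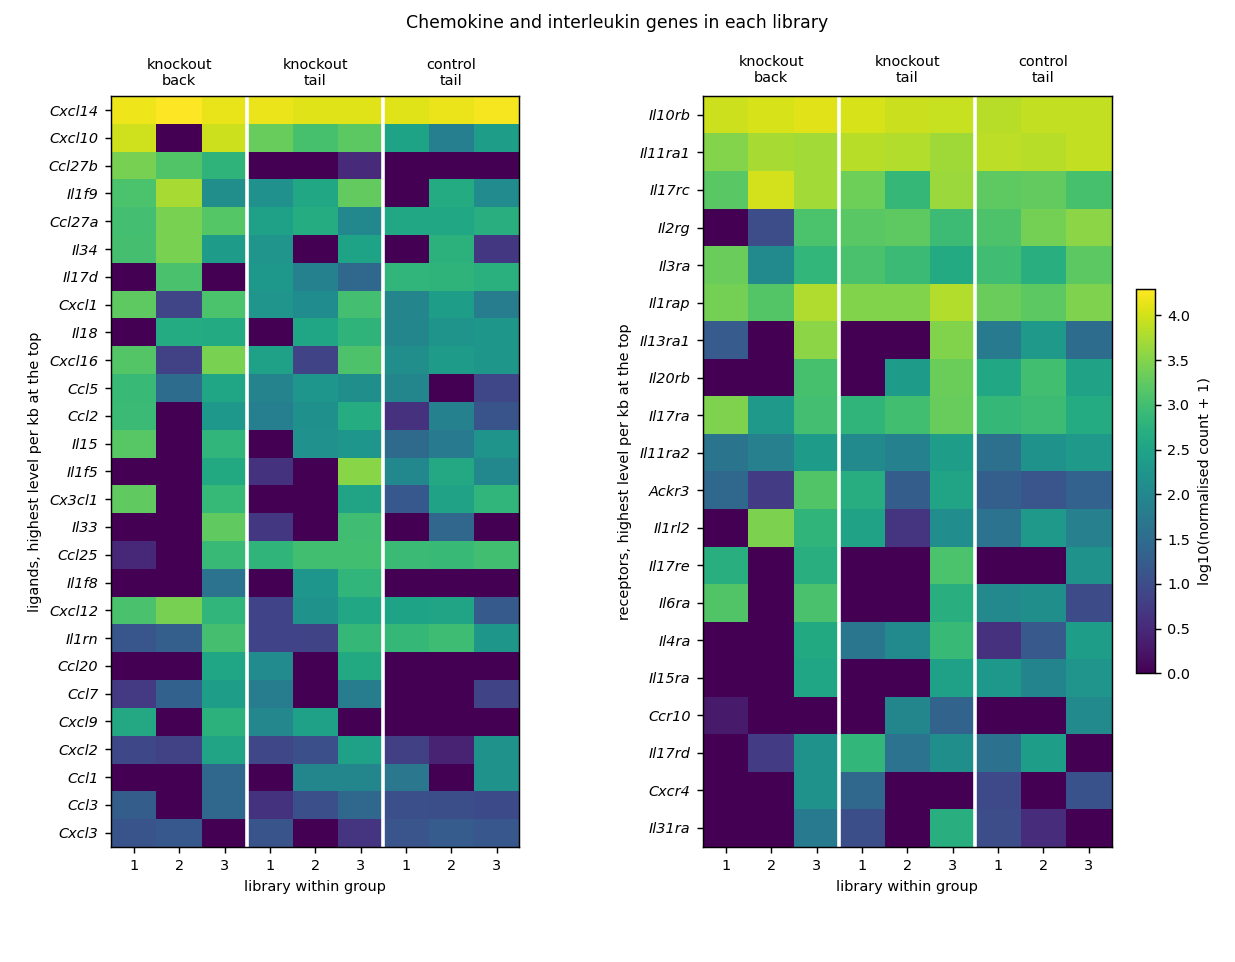
Log10 of the normalised count plus 1 of the 27 ligands (left) and 20 receptors (right) in each of the 9 libraries, grouped as knockout back, knockout tail and control tail, with the highest level per kilobase at the top. Cxcl14 and Il10rb are high in every library, and most other genes are at or near 0 in some libraries.

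Among ligands, Cxcl14 had by far the highest level. CXCL14 is a chemokine that epithelia, skin among them, make without stimulation. Per kilobase of exon its mean normalised count over all libraries was 8160, followed by Cxcl10 at 1220 and Ccl27b, also at 1220, then Il1f9 at 650 and Ccl27a at 339. Cxcl14 had 15464, 19738 and 14118 normalised counts in knockout back, 14942, 12410 and 12285 in knockout tail and 12407, 15139 and 17747 in control tail. The 3 groups overlapped, and the differences of 0.30 and 0.19 for back against knockout and control tail and of -0.10 for knockout tail against control tail did not pass (adjusted p of 0.462, 0.612 and 1). The order below Cxcl14 is loose, because the levels of the next ligands differed widely between libraries. Ccl27b holds its place through back, at 3650 per kilobase, beside 1.81 in knockout tail and 0 in control tail.

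Cxcl9 and Cxcl10 are chemokines known as targets of interferons, and both act on CXCR3 of T cells. Cxcl10 had 9924, 0 and 9359 normalised counts in knockout back, 1976, 1110 and 1671 in knockout tail and 317.1, 72.0 and 257.4 in control tail. All 3 knockout tail libraries lay above all 3 control libraries, while back held both the highest values and a 0, in sparse library 2. The difference of 1.31 ± 1.32 for knockout tail against control tail did not pass (adjusted p = 1), and neither did that of 1.86 ± 1.32 for back against control tail (adjusted p = 0.427). Cxcl9 had 388.8, 0 and 581 in back, 98.5, 284.5 and 0 in knockout tail and no count in any control library. Cxcl9 met the minimum of 10 counts in 3 libraries through knockout libraries alone. Counts in 4 of 6 knockout libraries and in 0 of 3 controls are thus partly built into its presence in the table. Its differences were 1.24 ± 0.61 for back (adjusted p = 0.26) and 0.79 ± 0.61 for knockout tail against control tail (adjusted p = 1), and neither passed.

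The 250 bases before the start of Cxcl10 (chr5:92348890-92349139) and Cxcl9 (chr5:92328080-92328329), both read on the minus strand from RefSeq on GRCm38.p6, were searched on both strands for GAAA, any 2 bases and GAAA, a short form of the element that interferon-regulated STAT complexes bind. Capitals mark the match.
Cxcl10: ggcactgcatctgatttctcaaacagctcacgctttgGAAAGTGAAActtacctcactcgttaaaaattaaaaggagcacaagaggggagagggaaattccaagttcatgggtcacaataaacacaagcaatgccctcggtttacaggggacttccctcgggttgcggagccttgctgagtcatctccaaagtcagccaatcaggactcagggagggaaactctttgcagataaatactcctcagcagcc
Cxcl9: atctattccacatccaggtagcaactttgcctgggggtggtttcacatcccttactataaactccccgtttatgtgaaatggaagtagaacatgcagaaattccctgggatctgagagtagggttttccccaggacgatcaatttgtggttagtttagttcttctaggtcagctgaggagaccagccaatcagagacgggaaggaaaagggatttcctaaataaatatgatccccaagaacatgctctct

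Cxcl10 held the pattern once, at position -213 relative to its start, and the Cxcl9 window did not hold it. The 38 members with a RefSeq promoter had 50 windows, since some have several starts. The pattern was in 2 of the 50 windows (4%), those of Cxcl10 and Cxcl14, beside 2.98% of 32851 windows of the same length over all genes. TTCNNNGAA, a STAT pattern, was in 4 windows (8%, beside 7.02%), and a loose NF-kB pattern of GGG, any 5 bases and CC in 24 (48%, beside 45.8%). These shares are near the background. The 3 patterns were read separately, and overlaps between their matches were not removed. A match is a description of these letters and not a binding site.

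Chemokines that draw monocytes, T cells and neutrophils were mostly low and uneven. Ccl5, which acts on T cells and myeloid cells, had 776.4, 31.6 and 335.1 normalised counts in knockout back, 81.5, 183.2 and 138.7 in knockout tail and 94.7, 0 and 7.29 in control tail. Ccl2, which draws monocytes through CCR2, had 865.8, 0 and 195 in back, 70.2, 144.4 and 457.8 in knockout tail and 3.16, 77.8 and 12.1 in control tail. In both genes a back library held the highest value and the groups overlapped; no difference passed, the largest being 1.05 ± 0.51 for Ccl5 in back against control tail (adjusted p = 0.253). Cxcl1, a neutrophil chemokine, had 1721, 7.02 and 1216 in back, 171.2, 121.6 and 1045 in knockout tail and 88.3, 250.7 and 66.4 in control tail. Its relative Cxcl2 stood at 160.3 to 323.3 in the third library of each group and at 1.66 to 10.1 in the other 6. Cxcl16, a membrane-bound chemokine, ranged from 5.85 to 2700, with the highest value in back library 3.

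Cxcl12, the ligand of CXCR4 and of the scavenger receptor ACKR3, had 1183, 2657 and 683.9 normalised counts in knockout back, 6.46, 163.8 and 358.4 in knockout tail and 312.3, 325.2 and 15.4 in control tail. Every back library lay above every tail library. The differences of 1.84 ± 0.59 against knockout tail (adjusted p = 0.171) and 1.70 ± 0.63 against control tail (adjusted p = 0.152) did not pass. Cx3cl1, a membrane-anchored chemokine, ran from 0 to 1761 with overlap between groups. Ccl25, known from thymus and gut where it acts on CCR9, had 2.15, 0 and 822.1 in back, 650.7, 981.9 and 986.2 in knockout tail and 836, 813.4 and 979.5 in control tail. Only the sparse back libraries 1 and 2 were low, and library 3 lay within the tail range. The differences of -1.56 ± 0.48 and -1.99 ± 0.51 did not pass (adjusted p of 0.158 and 0.0707), and when the smaller set was dropped, so that back held the sparse libraries alone, they were -2.25 and -2.33 (adjusted p of 0.0193 and 0.0109).

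Ccl20, the ligand of CCR6, had 0, 0 and 338 normalised counts in knockout back, 119.5, 0 and 410.4 in knockout tail and 0 in all 3 control libraries. It met the minimum of 10 counts in 3 libraries through knockout libraries alone, so this contrast with the controls is built in. Counts of Ccl7, Ccl1, Ccl3 and Cxcl3, named after their values were seen, were at most 243 in any library. Of these only Cxcl3 separated knockout tail from control tail, at 12.1, 0 and 3.47 against 12.6, 16.6 and 13.8, a difference of -0.13 ± 0.15 that did not pass (adjusted p = 1).

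Interleukin genes of the IL-1 family were spread widely within groups. Il1f9, which encodes IL-36 gamma, a keratinocyte alarm cytokine, had 1190, 5381 and 132.3 normalised counts in knockout back, 151, 360.5 and 1871 in knockout tail and 0, 441.1 and 116.6 in control tail. Its difference of 1.97 ± 1.04 for back against control tail did not pass (adjusted p = 0.29) and was -1.75 without the sparse back libraries. Il33, an alarm cytokine held in the nucleus, had 0, 0 and 1783 in back, 4.04, 0 and 966.6 in knockout tail and 0, 24.8 and 0 in control tail. It was thus high in the 2 libraries of the smaller set and near 0 in the rest. Il18 ran from 0 to 615.1 with overlap.

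Il1rn, the antagonist of the IL-1 receptor, was low in the knockout libraries of the larger set. It had 12.9, 18.7 and 1093 normalised counts in knockout back, 6.46, 6.75 and 736.5 in knockout tail and 739.8, 936.7 and 188.6 in control tail. The knockout libraries of the smaller set lay within the control range or above it. The difference was -1.78 ± 0.44 for knockout tail against control tail (adjusted p = 0.334) and -1.57 ± 0.44 for back against control tail (adjusted p = 0.084), and neither passed. Il1f5, the antagonist of the IL-36 receptor, and Il1f8, which encodes IL-36 beta, were named after their values were seen. Il1f5 had 0, 0 and 405.7 in back, 3.23, 0 and 3389 in knockout tail and 101, 399.7 and 100.4 in control tail. Il1f8 had counts in back library 3 and in knockout tail libraries 2 and 3, at 42.1, 182.4 and 674, and none elsewhere. It was thus in the table through these knockout libraries alone, and its lack of control counts is built in.

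The remaining interleukins also varied by library. Il34, which binds the receptor CSF1R and sustains Langerhans cells, had 1075, 2758 and 228.3 normalised counts in knockout back, 175.2, 0 and 306.4 in knockout tail and 0, 585 and 4.05 in control tail. Its differences of 1.64 ± 0.78 and 1.95 ± 0.83 for back against knockout and control tail did not pass (adjusted p of 0.31 and 0.198), and without the sparse back libraries they were -0.19 and -0.34. Il17d, an IL-17 family member, had 0, 1180 and 0 in back, 196.2, 76.8 and 27.8 in knockout tail and 667.3, 626.4 and 538.3 in control tail. Knockout tail lay below control tail without overlap, yet the difference of -0.92 ± 0.66 did not pass (adjusted p = 1). Il15, a cytokine that keeps lymphocytes alive, ran from 0 to 1503, the highest value being in back library 1.

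**Figure D4:**
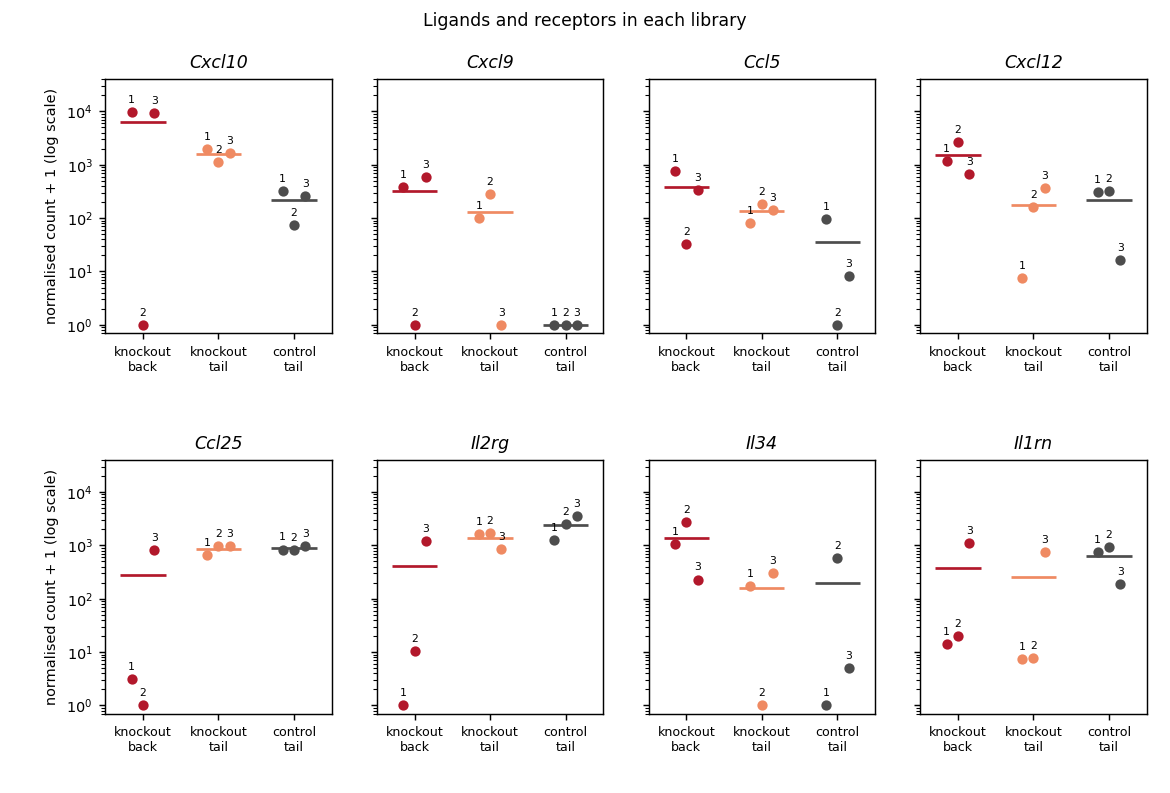
Normalised counts plus 1 on a log axis of 8 ligands and receptors, with 1 point per library (numbered 1 to 3) and a bar at the group mean. In Cxcl10 the 3 knockout tail libraries, at 1110 to 1976, lie above the 3 controls, at 72.0 to 317.1, and in Ccl25 and Il2rg back libraries 1 and 2 lie apart from back library 3.

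Receptors had their own order of levels. Il10rb, the shared second chain of the receptors for IL-10, IL-22 and the lambda interferons, led with 2470 per kilobase of exon. Il11ra1 followed at 1340, Il17rc at 1200, Il2rg at 591, Il3ra at 316 and Il1rap at 286, all as mean normalised counts per kilobase over the 9 libraries. Il11ra1 and Il17rc did not differ beyond their spread, since Il17rc alone ran from 732.8 to 9986 normalised counts.

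Il10rb had 9359, 10747 and 12569 normalised counts in knockout back, 10999, 8998 and 8817 in knockout tail and 6966, 8013 and 8112 in control tail. Every knockout library lay above every control library. The differences were 0.44 ± 0.21 for back (adjusted p = 0.23) and 0.27 ± 0.21 for knockout tail (adjusted p = 1), each against control tail, and neither passed. Il10rb overlaps another annotated gene, Gm21970, on its own strand. Il11ra1, the chain that binds IL-11 and signals with gp130, had 3143, 5527 and 5046 in back, 6978, 6433 and 4900 in knockout tail and 7319, 6771 and 7979 in control tail. Back lay below control tail without overlap, with a difference of -0.64 ± 0.28 that did not pass (adjusted p = 0.216). Il11ra1 overlaps Ccl27a at its end on the opposite strand, and its transcript shares 99.0% of 1299 aligned bases with that of Il11ra2, so its counts are uncertain. Il11ra2 lies beside Ccl27b, at chr4:42656355-42661893, and had 44.2, 73.7 and 234.2 in back, 112.2, 76.8 and 256.7 in knockout tail and 37.9, 152.3 and 206.4 in control tail, with overlap between all groups.

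Il2rg encodes the gamma chain that IL-2, IL-4, IL-7, IL-15 and IL-21 receptors share, and it is best known from lymphocytes. It had 0, 9.36 and 1200 normalised counts in knockout back, 1604, 1734 and 870.6 in knockout tail and 1263, 2515 and 3504 in control tail. Back lay below control tail without overlap, but the third back library exceeded a knockout tail library. The differences of -1.86 ± 0.69 against knockout tail (adjusted p = 0.216) and -2.76 ± 0.74 against control tail (adjusted p = 0.0766) did not pass. Without the sparse back libraries the difference against knockout tail was 0.33, and in the larger set alone it was -2.95 (adjusted p = 0.0213). T cell markers, 5 of 10 in the table, summed to 46, 178 and 936 in back, 30, 359 and 44 in knockout tail and 43, 51 and 122 in control tail. Cd3d, a chain of the T cell receptor complex, was at 0 to 61.7 in the 9 libraries. Cd3g, another chain of it, was at 0 to 496.8, and Lck at 0 to 185.2. All 5 markers were highest in back library 3, and the part of T cell transcripts in Il2rg was not tested. Il2rg overlaps the gene model Gm20489 on the same strand.

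Il15ra, which holds IL-15 for neighbouring cells, had 0, 0 and 344.9 normalised counts in knockout back, 0, 0 and 290.2 in knockout tail and 194, 85.2 and 171.6 in control tail. The zeros were in the 4 knockout libraries of the larger set, and the knockout libraries of the smaller set lay above all controls. Its differences of -1.05 ± 0.26 and -1.09 ± 0.26 for back and knockout tail against control tail had adjusted p of 0.0624 and 0.32. Il20rb, a chain of the receptors for IL-20 family cytokines, had 0, 0 and 1099 in back, 0, 237.2 and 2181 in knockout tail and 362.8, 979.7 and 295.5 in control tail. Il13ra1, which pairs with the IL-4 receptor chain, had 16.2, 0 and 3574 in back, 0, 0 and 3086 in knockout tail and 58.4, 209.4 and 32.4 in control tail. Both were highest in the smaller set.

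Il1rap, the accessory chain of the IL-1, IL-33 and IL-36 receptors, was found in all libraries, with 2547, 1422 and 6096 normalised counts in knockout back, 3112, 3066 and 6291 in knockout tail and 2115, 1622 and 2989 in control tail. Knockout tail lay above control tail without overlap, by 0.34 ± 0.33 (adjusted p = 1). Il1rl2, the chain that binds IL-36, ran from 0 to 2828. Il17ra and Il17rc, which together bind IL-17A and IL-17F, were counted in every library, Il17ra at 211.7 to 2987. Il3ra, which binds IL-3, ran from 112.3 to 2079, and its groups overlapped. Il6ra was at 0 in 3 libraries and Il4ra in 2. Il17re, Il17rd and Il31ra, named after their values were seen, were at 0 in 5, 2 and 4 libraries.

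Receptors of chemokines were low in most libraries. Ackr3 had 25.8, 4.68 and 1351 normalised counts in knockout back, 469.1, 17.7 and 329.5 in knockout tail and 18.9, 12.4 and 21.9 in control tail. Cxcr4 had 163.6 in back library 3 and at most 27.4 elsewhere. Ccr10, the receptor of CCL27, had 1.08, 0 and 0 in back, 0, 92.9 and 21.97 in knockout tail and 0, 0 and 106.9 in control tail. It met the minimum of 10 counts in 3 libraries through tail libraries alone, and Ccl27b through back libraries alone. No contrast between the genes can be read from this. The differences of Ackr3, Cxcr4 and Ccr10 ran from -0.40 to 0.39, and none passed in any comparison.

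Counted over the whole set, the shares of members whose groups did not overlap were close to or below those of the table at large. For back against knockout tail, 3 members (Ccl27a, Ccl27b and Cxcl12) lay higher in back without overlap, 6.38% of 47, beside 4.55% of all genes, and 0 lay lower, beside 10.4%. For back against control tail the same 3 and Il10rb lay higher (7.41% of all genes did), and Il11ra1 and Il2rg lower (15.6%). For knockout tail against control tail 3 lay higher (Cxcl10, Il10rb and Il1rap, beside 9.7% of all genes) and 2 lower (Cxcl3 and Il17d, beside 9.31%).

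Most members were at 0 counts in some library. Of the 47, 32 had 0 counts in at least 1 library, and 9 had at least 10 counts in all 9 libraries, 43.5% of all genes having the latter. The members at 0 counts numbered 15, 21 and 3 in knockout back, 12, 14 and 2 in knockout tail and 10, 10 and 7 in control tail. In knockout tail library 2 this was 29.8% of members, beside 10.7% of all genes. Every member, like every gene with recovered counts, had at least 10 counts in at least 3 libraries, so a gene could be in the table through 1 group.

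The 2 libraries of the smaller set carried much of what was counted for these genes. A member had its highest normalised count in a library of the smaller set in 23 of 47 cases (48.9%), beside 28.3% of all genes. The shift removed before deposit, smaller minus larger set, had a median of 0.74 on the log2 scale over members and 0.16 over all genes. It exceeded 1 in 19 of 47 members, beside 12.6% of genes, and was largest in Il13ra1 at 3.51, Il33 at 2.74, Il1f5 at 2.31 and Cxcl10 at 2.05. Il17d, at -1.32, was the member shifted most the other way. The back and knockout tail libraries of this set also had the highest basal keratinocyte sums of all 9, and the part of keratinocyte transcripts in these counts was not tested. Because the set held knockout libraries and no control, the set and the genotype are partly tied, and a shift common to both libraries enters none of the differences fitted with the set term. The normalised counts, their ratios and the counts of groups that do not overlap do contain it.

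**Figure D5:**
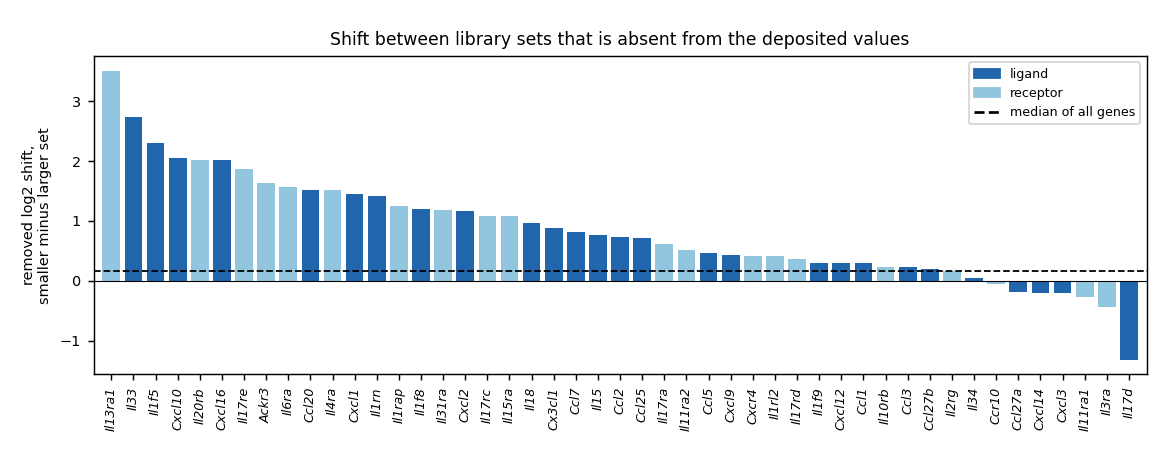
Log2 shift between the smaller and the larger set of libraries that was absent from the deposited values, for each of the 47 genes, ligands in dark and receptors in light blue. The dashed line is the median of all genes, 0.16, and 19 members lie above 1.

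Partners of these genes outside the set were read from a list of 54, of which 41 were in the table: shared receptor chains, related cytokines, JAK kinases, STAT factors, SOCS inhibitors and parts of the NF-kB pathway. Of the 41, 1 was higher and 0 lower for back against control tail, beside 1.05% higher and 3.34% called in either direction among all genes, so that 1 call is near the background. Limma called 0 in the other 2 comparisons. At an unadjusted p under 0.05 there were 13 of the 41 for back against control tail, beside 24.6% of all genes. There were 10 for back against knockout tail, beside 18.2%, and 2 for knockout tail against control tail, beside 5.7%. The gene that rose was Csf1, the other ligand of CSF1R beside IL-34. Csf1 had 1764, 1358 and 1141 normalised counts in knockout back, 321.3, 98.8 and 335.3 in knockout tail and 60.7, 98.5 and 11.3 in control tail. Back lay above both tail groups without overlap, by 1.55 ± 0.38 against knockout tail (adjusted p = 0.111) and by 2.26 ± 0.41 against control tail (adjusted p = 0.0378). Its receptor Csf1r had 29.1, 29.2 and 19.6 in back, 15.3, 21.95 and 492.5 in knockout tail and 21.3, 12.4 and 17 in control tail. The Langerhans and myeloid markers, 10 of 12 in the table, summed to 7366, 21503 and 27024 in back, 1688, 817 and 12085 in knockout tail and 1125, 2613 and 864 in control tail. Most of the back sums came from Cd74, H2-Aa, H2-Ab1 and H2-Eb1, and Cd207 and Itgax were not in the table. Of the others, Ptprc had 0, 265.5 and 20.6 in back and at most 12.6 in tail. Tyrobp had 8.62, 1497 and 32.3 in back and at most 41.6 in tail. Lyz2 had 126, 5372 and 127.4 in back, 908.3, 479.6 and 376.9 in knockout tail and 363.6, 91.0 and 118.2 in control tail. Each was highest in back library 2, while Fcer1g and Epcam overlapped between back and tail. How far the sums reflect myeloid cells, and the part of these markers in the Csf1 difference, was not tested. Stat3, which carries signals of gp130 receptors, had 12295, 11104 and 29050 in back, 19775, 17809 and 21975 in knockout tail and 8967, 4789 and 7962 in control tail. Each knockout library lay above each control library, and the differences of 0.88 ± 0.31 for back and 1.18 ± 0.31 for knockout tail against control tail did not pass (adjusted p of 0.14 and 0.394). Of all genes, 7.41% and 9.7% lay above control tail without overlap in these comparisons. Other partners differed more for back against control tail, in both directions, and did not pass either. Socs2 was at -2.55 ± 0.70, Grk2 at -2.34 ± 0.53 and Nfkbiz at 1.99 ± 0.44 (adjusted p of 0.0805, 0.0551 and 0.0537).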

How the data were processed

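Smart-seq libraries of sorted melanocytes were analysed in 3 groups of 3. The authors deposited log2 values of 16299 genes in 1 table with a column per library. The submitters' processing notes name DESeq2 and GRCm38, without version. The aligner and counting rule were not given in sources used here. From the values, the deposited log2 table followed a variance-stabilising curve on which 0 counts lie at 7.98, with a shift between 2 library sets removed. The set means were equal in every gene to within 7.14e-09, and the next best of 255 partitions differed by up to 1.5. Inverting both steps returned read counts for 16296 genes that were whole to a tolerance of 0.004. The genes Dct, Pmel and Tyrp1 could not be resolved.

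Differences were fitted with limma 3.58.1 in R 4.3.3 (trend and robust moderation) on all 9 libraries with group and library set as terms, since group alone gives differences from which part of the genotype difference was removed. Recovery and fit were tested on simulated data. The filter of at least 10 counts in 3 libraries removed no gene, and the groups of 3 allow no firm statement on small differences. Members and lists were chosen with earlier results of these data known. Genes were named by these rules: calls, the 12 ligands and 12 receptors highest per kilobase, the 5 largest differences per comparison, and known roles in skin. Of 43 members fixed for such roles, 28 were in the table, and the other 15 were not analysed here. Libraries with the same replicate number did not deviate together in the deposited values, and no block was used in the main fit. The removed set shift forces the third knockout libraries apart, so this check cannot settle their pairing. Their counts of the Y-linked Eif2s3y differed, at 3922 in back and 0 in knockout tail. Alternatives were no set term, limma-voom, other scales and normalisations, and libraries left out. Annotation is GENCODE vM21, which matched 47 of 47 members.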

Additional observations from a re-analysis of the deposited data

How the results depend on the processing

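The median differences and counts depended on the scale and on single libraries, and depth limits any statement on genes under about 10 counts. Calls for knockout tail against control tail fell to 0 without the set term, with limma-voom with or without it, on log2 of the normalised count plus 1 or plus 10, without trend, with either replicate block, in the larger set alone and without the sparse back libraries. For back against knockout tail the calls were 244 without the set term, 202 and 168 with limma-voom with and without it, 189 on log2 plus 1, 1637 in the larger set alone and 1 without the sparse libraries. For back against control tail they were 163 without the set term, 317 with limma-voom without it, 2371 in the larger set and 8 without the sparse libraries. The replicate block gave 3 and 5 calls with the set term and 21 and 42 without it, for back against knockout and control tail, and 0 members. Deviations from group means of same-numbered libraries correlated between -0.70 and 0.08 on the deposited values. The -0.70 belongs to the third back and knockout tail libraries, the smaller set, whose deviations the removed set shift forces apart. This check therefore cannot show whether those 2 libraries are paired. Eif2s3y and Ddx3y, both on the Y chromosome, had 3922 and 2302 counts in back library 3. Both had 0 in knockout tail library 3, so these 2 libraries did not hold the same animals. With the block Ccl27b had 2.82 and 3.04 with the set term (adjusted p of 0.201 and 0.163), and 2.82 and 2.80 without it (0.0725 and 0.0596). Without the sparse libraries, and with no block, it had 1.96 in both. Members called against control tail were 3 with limma-voom and the set term (Ccl27b, Il15ra, Il1f5), 3 on log2 plus 1 and 3 on log2 plus 10, 4 in the larger set (Ccl25, Ccl27b, Il15ra, Il2rg) and 0 without the sparse libraries. Against knockout tail they were 3 in the larger set (Ccl25, Ccl27b, Il2rg) and 0 without the sparse libraries. Those sets lose a back library or 2, and the cause of the other changes was not tested. Without the sparse libraries Il1f9 turned to -1.75 and Il34 to -0.34 (back against control tail), Il2rg to 0.33 and Il34 to -0.19 (against knockout tail). The ligand median for knockout tail against control tail was -0.54 with limma-voom and the set term and -0.64 on log2 plus 1. For back against knockout tail it was 0.68 with limma-voom and the set term and 0.77 with quantile normalisation, and for back against control tail 1.19 with limma-voom without the set term and 0.92 with quantile normalisation. The receptor median for back against knockout tail was -0.45 with limma-voom and the set term, -0.45 on log2 plus 1 and 0.26 with quantile normalisation; against control tail it was -0.79, -0.74, -0.65 on log2 plus 10 and 0.37 with quantile normalisation. Leaving out 1 library at a time gave 2 to 1642 calls for back against knockout tail, 26 to 2385 against control tail and 0 to 8 for knockout tail against control tail, with 0 to 3, 0 to 4 and 0 members. Ccl27b then ran from 2.48 to 3.25 and from 2.61 to 3.25. The ligand medians ran from 0.11 to 0.28, 0.02 to 0.4 and -0.13 to 0.04, and the receptor medians from -0.25 to 0.02, -0.37 to 0.05 and -0.27 to 0.06, in the same order.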
